A study of Mus musculus with 39 samples.

Results

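Interleukins are secreted signals between blood cells, and interleukin receptors are the surface chains that read them. The genes described here are those whose symbol is Il followed by a number and an optional chain or receptor code, with Il7r left out. Of 18194 genes measured, 69 fitted that pattern, and 30 of the 69 had a mean level above 6 or a range above 3 on the log2 scale. Of the 30, 20 met the threshold on the mean, 23 that on the range and 13 both, so that some members are in the set because they varied. Closest to the level threshold were Il1r2, inside with a mean of 6.01, and Il17rc, outside with 5.96. Closest to the range threshold were Il21r, inside with 3.15, and Il13ra2, outside with 2.70. The other 39 genes had a highest mean of 5.96 and a median SD of 0.20, against a median SD of 0.76 in the set.

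RNA was taken from 39 lymphomas of Eµ-myc mice and measured on 1 short-oligonucleotide array per tumour. In these mice a Myc transgene is driven by the enhancer of the immunoglobulin heavy chain, which is active in B lineage cells, and lymphomas of B lineage follow. The labels put all 39 tumours in 1 group, and give no age, strain, sex, treatment or normal tissue. Nothing in the labels ties a tumour to a mouse of its own, and p-values therefore cover the spread between samples, whatever its source. The deposited values are RMA log2 levels, and a difference of 1 is a factor of 2 in signal.

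As background, most interleukin receptors signal by pairing a chain that binds the cytokine with a chain that is shared between receptors. Receptors of the IL-2, IL-4, IL-6 and IL-10 groups work through Jak kinases and Stat factors. Receptors of the IL-1 and IL-18 group work through the adaptor Myd88 and Irak kinases. In lymphoid tissue, T cells, macrophages, stroma and B cells each make and read different sets of these signals.

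The labelled tissue was first set against marker lists. A list score averages, over the genes of the list, how far each lies from its own mean on the log2 scale. The Pan B list (9 genes measured, among them Cd79a and Pax5) was low in tumours 5 (-3.15), 6 (-3.43), 8 (-3.04), 19 (-2.13), 23 (-3.43) and 26 (-1.86), against a median of 0.53. Tumour 2 had a Pan B score of 0.02 but the lowest Myc level, 8.19. These 7 tumours (Pan B score under -1 or Myc level under 10) stand apart, and the main results are given below with them and over the other 32. Tumour 32, with a Pan B score of -0.98, lies just inside that limit and is counted among the other 32. Tumours 6, 2 and 23 had the 3 highest Macrophage scores (15 genes; 1.67, 1.45 and 1.34). Tumours 2 and 27 had the highest T cell scores (12 genes; 2.83 and 2.04) and the highest Mature B scores (11 genes; 3.30 and 2.54). Tumours 32 and 5 had the highest scores of the plasmacytoid dendritic list (5 genes; 3.55 and 2.84). In bulk tissue, fewer cells of a type and less RNA per cell cannot be told apart.

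Among the secreted interleukins, Il10 was low in most tumours and high in a few. Il10 encodes a cytokine that dampens inflammatory responses. Its level was 3.61 in the lowest tumour, 3.93 at the median and 9.69 in the highest, tumour 8. Tumours 6 (9.55), 23 (7.57) and 18 (7.03) followed, and 8 of 39 tumours lay more than 1 above the median. Il15, which sustains NK and CD8 T cells, ran from 3.83 through a median of 4.54 to 8.28, again highest in tumour 8. Tumours 2 (7.88), 6 (7.85) and 23 (7.77) were next, and the step down to the fifth tumour, at 6.12, was left empty. Without the 7 tumours that stand apart the SD of Il15 was 0.57, against 1.15 with them, and that of Il10 was 0.72, against 1.51.

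Il18, a cytokine of the IL-1 family that is cut to its active form by caspase-1, had its peak in other tumours. It ran from 7.70 through a median of 8.43 to 13.56 in tumour 5, with 12.55 in tumour 32 and 10.94 in tumour 4. The 2 highest were the tumours with the highest plasmacytoid dendritic scores, and whether those cells supply the transcript was not tested. Il1b, an inflammatory cytokine, ran from 4.38 through 5.37 to 8.76 in tumour 2, and 7.14 in tumour 27 was the next level. Its antagonist Il1rn ran from 4.37 through 5.06 to 7.55, with tumours 2, 23 (6.85) and 18 (6.67) at the top. Tumour 2 was thus the highest for both the ligand and its antagonist.

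Il33, an alarm signal stored in the nuclei of stromal cells, ran from 5.35 in tumour 36 through 7.88 to 11.43 in tumour 2. Il7, a survival factor for lymphocytes made by stroma, ran from 3.84 through 4.54 to 7.25 in tumour 2, with 6.82 in tumour 27. Il16, a chemoattractant for CD4 cells, ran from 8.68 through 9.66 to 10.98, but its 4 probe sets disagreed (lowest r = -0.30). Il12a, a subunit of IL-12, had the broadest spread once the 7 tumours were left out. It ran from 3.66 in tumour 5 through 6.00 to 9.23 in tumour 24, followed by tumours 21 (8.50) and 20 (8.36). Its SD was 1.18 in the 32 tumours, the largest of the 30 genes there, against 1.33 over all 39. The 3 highest Il12a levels came from tumours that are not among the 7, and tumours 5, 26 and 23 held 3.66, 3.99 and 4.20.

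**Figure D1:**
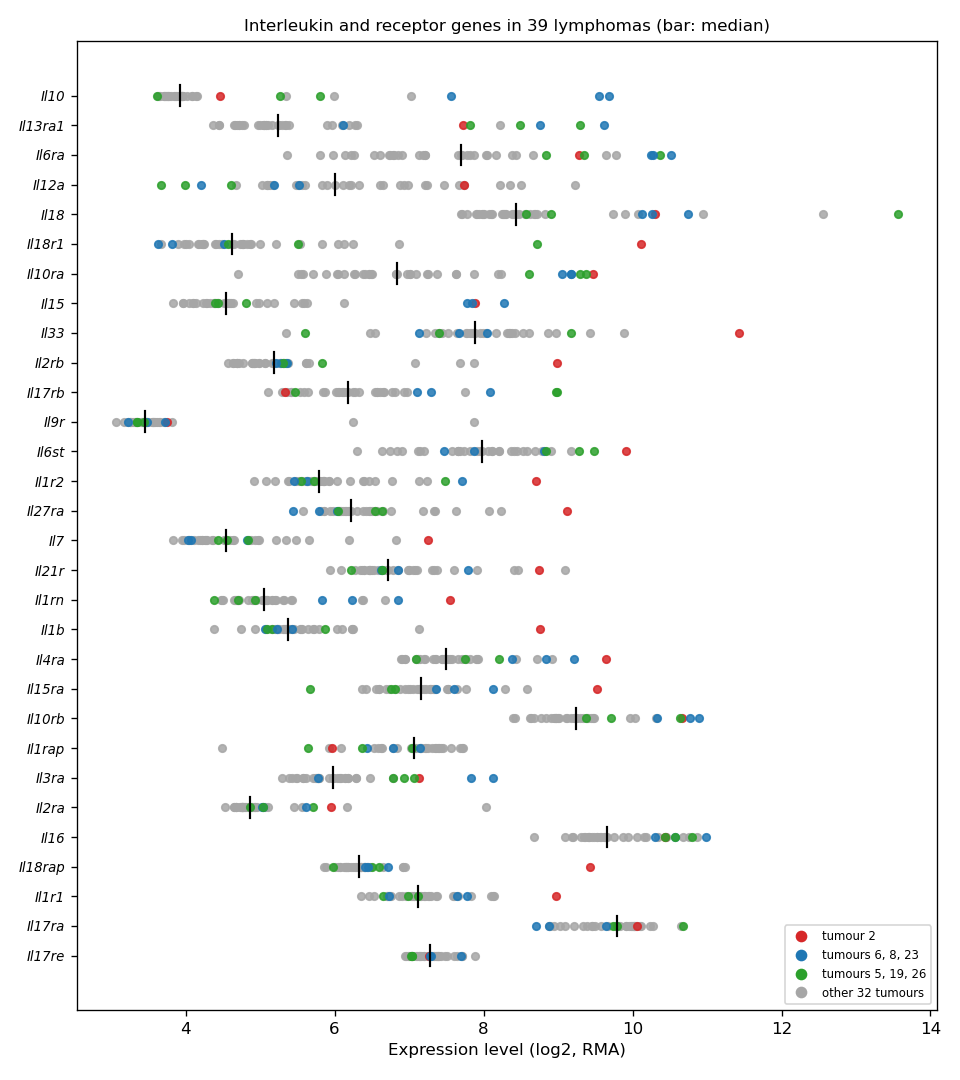
Log2 level of each of the 30 genes (rows, ordered by SD) in each of 39 tumours (points); bars are medians and colours mark the 7 tumours that stand apart. Il10 sits near 3.93 in most tumours and at 9.55 and 9.69 in tumours 6 and 8, while Il9r is high in 2 grey points, at 7.88 and 6.24.

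Among the receptors, those of IL-6, IL-13, IL-18 and IL-10 varied most. Il6ra, the chain that binds IL-6, ran from 5.36 through 7.70 to 10.52 in tumour 8. Tumours 5 (10.37), 6 (10.28) and 23 (10.25) followed, and 9 tumours lay more than 1 above and 8 more than 1 below the median. Its partner Il6st, known as gp130 and shared by several cytokines, ran from 6.30 in tumour 17 through 7.98 to 9.91 in tumour 2. Il13ra1, which joins Il4ra in a receptor for IL-4 and IL-13, ran from 4.37 through 5.24 to 9.62 in tumour 23. Tumours 5 (9.30), 8 (8.76) and 19 (8.49) came next, so that 4 of the 7 tumours held the 4 highest levels. Il4ra itself ran from 6.89 through 7.50 to 9.64 in tumour 2, with 9.21 in tumour 8.

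Il10ra, the chain specific to IL-10, ran from 4.70 in tumour 21 through 6.83 to 9.47 in tumour 2. All 7 tumours that stand apart, between 8.61 and 9.47, lay above the highest of the other 32, which was 8.24 in tumour 32. Il10rb, a chain shared with other receptors of that group, ran from 8.39 through 9.24 to 10.90 in tumour 6. The probe sets of Il10ra agreed poorly (lowest r = 0.18), whereas those of Il10rb gave 0.66.

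Receptor chains that work with the common gamma chain were highest in other tumours than Il6ra and Il13ra1. The gene of that shared chain, Il2rg, is not among the 69 members measured. Il2rb, the signalling chain for IL-2 and IL-15, ran from 4.57 through 5.19 to 8.99 in tumour 2, then 7.87 in tumour 27, 7.69 in tumour 32 and 7.08 in tumour 1. A mixture model set those 4 tumours apart from the other 35. Il21r, for a helper T cell cytokine that drives B cell maturation, ran from 5.94 through 6.72 to 9.09 in tumour 18, the tumour with the highest germinal centre score (5.01). Il2ra, which raises affinity for IL-2, reached 8.03 in tumour 13, with a median of 4.86 and 6.16 as the second level. Il9r, for the mast and T cell growth factor IL-9, reached 7.88 in tumour 12 and 6.24 in tumour 1, while every other tumour lay between 3.06 and 3.82. Il15ra, which presents IL-15 to other cells, ran from 5.67 through 7.16 to 9.52 in tumour 2.

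Il27ra, which pairs with gp130 to bind IL-27, ran from 5.44 in tumour 6 through 6.22 to 9.12 in tumour 2 and 8.23 in tumour 12. Il3ra, which binds IL-3, ran from 5.30 through 5.98 to 8.13 in tumour 23 and 7.83 in tumour 6. Il17rb, a receptor chain for IL-25, ran from 5.10 through 6.18 to 8.99 in tumour 26 and 8.98 in tumour 19. The other IL-17 receptor chains of the set varied less than most of its genes. Il17ra, the chain common to that family, had an SD of 0.48, and Il17re, a chain for IL-17C, an SD of 0.24. The median SD was 0.76 in the set and 0.32 over all genes. In all, tumour 2 was the highest tumour for 14 of the 30 genes (46.7%), against 8.02% of all genes and 10.3% of those that pass the same thresholds. Tumours 6, 8 and 23 were the highest for 7 (23.3%), close to their share of all genes (21.9%). The 7 tumours together were the highest for 24 of the 30, against 35.0% of all genes and 37.7% of those past the same thresholds. Some genes passed a threshold only through these tumours: Il1b, Il1rn, Il1r2 and Il7 through tumour 2, and Il15 and Il3ra through the 7. The counts of highest tumours therefore partly restate how the set was chosen.

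Receptor genes of the IL-1 family form a cluster on mouse chromosome 1, and the 4 of that cluster in the set, Il1r2, Il1r1, Il18r1 and Il18rap, were highest in tumour 2. Il1rl2, the IL-36 receptor, lies in the same cluster between Il1r1 and Il18r1, is below both thresholds, and was highest in tumour 6 (6.42). Il1r2, a decoy that binds IL-1 without signalling, ran from 4.92 through 5.79 to 8.70, followed by tumours 6 (7.71) and 5 (7.48). Il1r1, the receptor that signals, ran from 6.35 through 7.13 to 8.97, followed by tumours 1 (8.15) and 22 (8.12). Il18r1, which binds IL-18, ran from 3.63 through 4.63 to 10.12, with 8.71 in tumour 5 and 6.86 in tumour 27. Its second tumour, 5, was thus the tumour with the highest Il18. Il18rap, its accessory chain, ran from 5.86 through 6.33 to 9.43, and no other tumour exceeded 6.95. Il1rap, the accessory chain of IL-1 and IL-33 receptors on another chromosome, instead had low tumours: 4.48 in tumour 18 and 5.64 in tumour 19, below a median of 7.07 and a highest level of 7.72.

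The promoters of the 4 chromosome 1 genes are shown because these genes peaked in the same tumour and lie in 1 cluster. The sequences are from RefSeq, build GRCm38.p6, 250 bases before to 50 after a start site, read along the gene. Capitals mark TTCNNNGAA, the letters of a Stat binding site, which reads the same on both strands.
Il1r2 promoter, chr1:40085843-40086142, + strand: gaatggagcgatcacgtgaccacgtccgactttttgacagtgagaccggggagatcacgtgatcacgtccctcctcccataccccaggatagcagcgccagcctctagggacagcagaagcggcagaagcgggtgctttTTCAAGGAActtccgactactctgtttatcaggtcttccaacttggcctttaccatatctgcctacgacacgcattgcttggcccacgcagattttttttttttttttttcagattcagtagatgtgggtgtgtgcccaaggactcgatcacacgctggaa
Il1r1 promoter, chr1:40224830-40225129, + strand: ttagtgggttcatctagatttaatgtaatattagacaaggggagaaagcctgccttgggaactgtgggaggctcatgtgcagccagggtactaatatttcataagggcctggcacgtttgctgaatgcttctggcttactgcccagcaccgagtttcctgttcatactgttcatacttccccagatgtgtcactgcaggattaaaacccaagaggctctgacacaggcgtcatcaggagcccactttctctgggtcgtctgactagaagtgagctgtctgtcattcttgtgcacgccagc
Il18r1 promoter, chr1:40465756-40466055, + strand: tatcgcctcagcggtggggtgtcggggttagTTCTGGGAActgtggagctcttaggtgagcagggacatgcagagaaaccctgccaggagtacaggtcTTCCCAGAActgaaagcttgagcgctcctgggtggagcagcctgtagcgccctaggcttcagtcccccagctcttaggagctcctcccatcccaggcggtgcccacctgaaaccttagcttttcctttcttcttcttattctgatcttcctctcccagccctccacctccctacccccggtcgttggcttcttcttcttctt
Il18rap promoter, chr1:40515112-40515411, + strand: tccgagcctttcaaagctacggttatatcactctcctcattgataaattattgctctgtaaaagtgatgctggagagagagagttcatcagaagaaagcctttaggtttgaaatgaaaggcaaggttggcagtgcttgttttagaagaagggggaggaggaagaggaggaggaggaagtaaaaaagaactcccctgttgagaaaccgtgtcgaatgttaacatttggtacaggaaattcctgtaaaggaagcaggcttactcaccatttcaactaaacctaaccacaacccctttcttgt
The letters stand 2 times in the Il18r1 window, which is 1 of 3 listed for that gene and was picked because it holds them, once in that of Il1r2, and not in those of Il1r1 and Il18rap.

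Promoters were listed for 22 of the 30 genes, 32 windows in all. TTCNNNGAA was found in 2 of the 32, against 8.30% of 32851 promoters of all genes. CACGTG, the E-box that Myc can bind, was in 2, those of Il1r2 and Il6ra, against 7.15%. The core of an interferon response element, GAAA and again GAAA after any 2 letters on either strand, was in 1, that of Il1rap, against 3.44%. A match describes the letters and not a bound site.

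**Figure D2:**
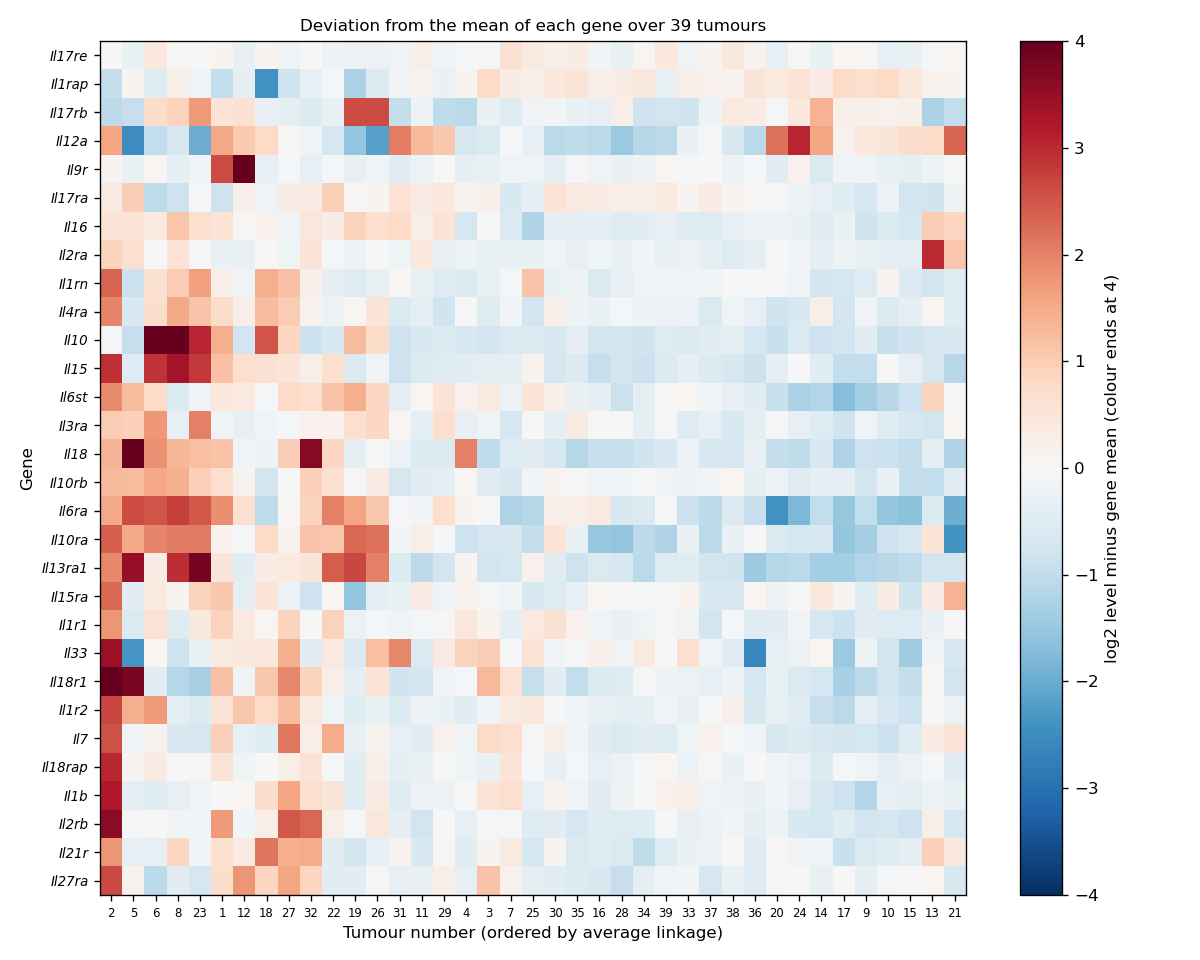
Deviation of each gene from its own mean (log2, colour) for 30 genes (rows, ordered by correlation) and 39 tumours (columns, ordered by similarity over these genes). Tumours 2, 5, 6, 8 and 23 lie at the left edge, with Il10 and Il15 high in 6, 8 and 23 and Il18r1, Il2rb, Il1b and Il33 high in tumour 2.

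The next question was which interleukin genes followed the transcripts of particular cells. All genes were fitted with limma on each of 5 marker scores that hold no interleukin gene, with Benjamini-Hochberg adjustment over all genes tested, and a slope is the log2 change per SD of the score. Along the T cell score 14 of the 30 genes rose, 1 fell and 15 did not pass. Over all genes 8.35% rose and 10.6% fell, and over those past the same level or range thresholds 11.2% rose and 11.9% fell. Il1b, Il7 and Il1r2 are in the set only through tumour 2, which had the highest T cell score, so the count in the 30 depends in part on the thresholds. Of all 69 measured members, taken without a threshold, 18 rose and 2 fell. The median slope was 0.30 in the 30 genes, against -0.03 in all genes.

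Il2rb rose by 0.82 ± 0.08 (slope, SE, n = 39; limma adjusted p = 4.4e-10), Il18r1 by 1.08 ± 0.12 (9.2e-09) and Il1b by 0.57 ± 0.07 (2.3e-07). Il7 rose by 0.59 ± 0.08, Il27ra by 0.58 ± 0.08 and Il6st by 0.61 ± 0.09, with limma adjusted p between 6.0e-07 and 3.8e-06. All 6 kept an adjusted p under 0.05 when tumour 2 was left out, when ranks replaced the score and over the 32 tumours. Il21r (0.45 ± 0.09), Il1r2 (0.47 ± 0.10), Il18rap (0.36 ± 0.07), Il10ra (0.62 ± 0.17), Il33 (0.52 ± 0.15), Il18 (0.59 ± 0.19), Il4ra (0.30 ± 0.10) and Il1r1 (0.29 ± 0.07) rose too. By ranks 8 of the 14 rose, the first 6 with Il21r and Il1r2, against 4.43% of all genes. Il1rap, the accessory chain of the IL-1, IL-33 and IL-36 receptors, fell by 0.37 ± 0.08 (adjusted p = 0.0018), but its 5 probe sets disagreed (lowest r = 0.05). Without tumour 2, 7 of the 14 still rose, the first 6 and Il21r, against 4.08% of all genes. Over the 32 tumours 17 genes rose, against 8.47% of all genes: 13 of the 14, without Il33, and Il15, Il16, Il13ra1 and Il6ra. Il1rap fell without tumour 2, against 2.03% of all genes, and over the 32 tumours, against 6.73%.

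Along the Macrophage score 14 genes rose and 0 fell, against 17.3% and 17.4% of all genes and 22.9% and 26.2% of genes past the same thresholds. At an unadjusted p under 0.05, 17 rose and 1 fell. Of the 69, 19 rose and 0 fell (22 and 2 unadjusted). The Il15 slope was 0.98 ± 0.10 (limma adjusted p = 3.5e-09), that of Il10 0.97 ± 0.18 (5.5e-05), that of Il13ra1 0.86 ± 0.18 and that of Il6ra 0.81 ± 0.18. Il10ra rose by 0.76 ± 0.15, Il10rb by 0.45 ± 0.07 and Il4ra by 0.45 ± 0.08, so that both IL-10 receptor chains rose with the score, as Il10 did. Il1rn (0.41 ± 0.09), Il17rb (0.39 ± 0.13), Il3ra (0.34 ± 0.09), Il1r2 (0.34 ± 0.11), Il1r1 (0.28 ± 0.07), Il18rap (0.26 ± 0.08) and Il18 (0.53 ± 0.19) completed the 14.

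Most of these macrophage calls were not made without the 7 tumours, nor were most calls over all genes. Over the other 32 tumours 1.29% of all genes rose and 0.622% fell. Of the 14 genes 2 still rose there, Il15 (0.38 ± 0.07, limma adjusted p = 0.0057) and Il13ra1 (0.41 ± 0.11, adjusted p = 0.048). Over the alternatives run for both genes the adjusted p of Il15 ran from 2.3e-09 to 0.0057 and that of Il13ra1 from 8.9e-04 to 0.048. Over the 32 tumours the slope of Il10 was 0.15 ± 0.12 (adjusted p = 0.52), and that of Il10ra 0.22 ± 0.14 (0.40), that of Il10rb 0.19 ± 0.07 (0.13) and that of Il6ra 0.31 ± 0.17 (0.33). With all 5 scores in 1 fit and all 39 tumours, 9 of the 14 rose, namely Il10, Il15, Il10ra, Il10rb, Il13ra1, Il4ra, Il17rb, Il18rap and Il3ra, against 9.5% of all genes, and Il17ra fell, against 11.9%.

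**Figure D3:**
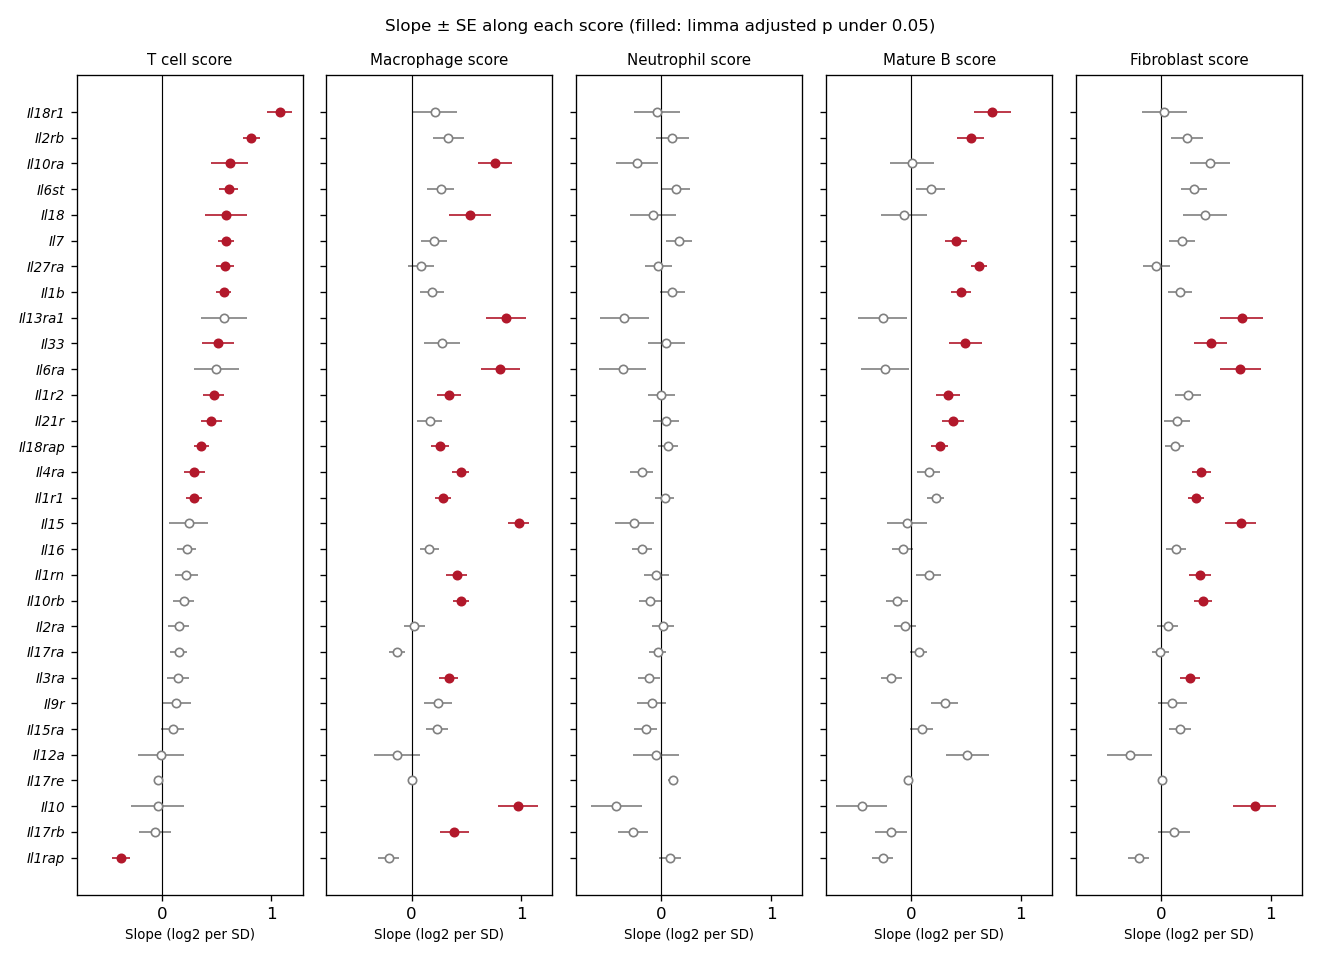
Slope of each of 30 genes (rows) along each of 5 marker scores (panels), in log2 per SD of the score with SE over 39 tumours; filled points have a limma adjusted p under 0.05. Il15 and Il10 stand at 0.98 and 0.97 along the Macrophage score, and no gene is filled along the Neutrophil score.

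Along the Mature B score 9 genes rose and 0 fell, against 5.37% and 7.59% of all genes and 7.32% and 8.1% past the same thresholds. At an unadjusted p under 0.05, 12 rose and 1 fell, and of the 69, 13 rose and 0 fell (17 and 5 unadjusted). Il27ra had the smallest p, with a slope of 0.62 ± 0.07 (limma adjusted p = 1.9e-07), and kept 0.48 ± 0.07 without tumour 2 and 0.52 ± 0.07 over the 32 tumours. The others were Il18r1, Il2rb, Il33, Il1b, Il7, Il21r, Il1r2 and Il18rap, all of which also rose with the T cell score. The T cell and Mature B scores were themselves related (r = 0.636, rho = 0.485, permutation p = 5e-05 and 0.0023, adjusted over 10 score pairs 0.00025 and 0.012), and r was 0.417 without tumours 2 and 27. With all 5 scores in 1 fit 5 genes rose, against 5.91% of all genes, and 7 fell, against 9.3%. Those that rose were Il12a, Il1b, Il1r1, Il27ra and Il33, and those that fell were Il10ra, Il10rb, Il13ra1, Il16, Il18, Il3ra and Il6ra. By ranks 3 rose, Il1b, Il21r and Il27ra, against 2.38%. Without tumour 2, Il27ra and Il1b still rose, 2 of the 9, against 4.85% of all genes, and Il3ra fell, against 8.22%.

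Over the 32 tumours the Mature B score gave a different list: 12 genes rose and 1 fell, against 7.31% and 7.37% of all genes, and 6 of the 12 were among the 9. Il10 rose there by 0.47 ± 0.10 (limma adjusted p = 9.3e-04) and Il15 by 0.41 ± 0.07 (adjusted p = 1.5e-04), whereas over all 39 tumours their slopes were -0.45 and -0.04, neither past the threshold (limma adjusted p = 0.19 and 0.91). Il10ra (0.44 ± 0.12), Il4ra (0.34 ± 0.06), Il9r (0.42 ± 0.14) and Il1rn (0.26 ± 0.08) rose there too, and Il1rap fell by 0.38 ± 0.09. The call of Il10ra turns round in the fit with all 5 scores over 39 tumours (-0.60 ± 0.15, limma adjusted p = 0.0063). The 2 tumours with high Il9r, 12 and 1, had Mature B scores of 1.94 and 1.76. Among these 32 tumours the highest Il10 was that of tumour 18 (7.03), which had a Mature B score of 2.15, and the highest Il15 that of tumour 1 (6.12), with 1.76.

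Along the Fibroblast score 10 genes rose and 0 fell, against 12.9% and 8.96% of all genes and 17.4% and 13.4% past the same thresholds. At an unadjusted p under 0.05, 13 rose and 1 fell, and of the 69, 12 rose and 0 fell (18 and 2 unadjusted). Il1rn is in the set only through tumour 2, and Il15 and Il3ra only through the 7 tumours. Tumours 8 and 6 had the highest Fibroblast scores, so this count too depends in part on the thresholds. The 10 were Il10, Il13ra1, Il15, Il6ra, Il33, Il10rb, Il4ra, Il1rn, Il1r1 and Il3ra, and all but Il33 also rose with the Macrophage score. Those 2 scores were related (r = 0.673, rho = 0.599, permutation p = 1e-05 and 8e-05, adjusted 1e-04 and 8e-04), with r = 0.608 without tumours 6 and 2. In the fit with all 5 scores Il1r1 (0.31 ± 0.07, limma adjusted p = 0.016) and Il33 (0.67 ± 0.17, adjusted p = 0.038) rose with the Fibroblast score, against 1.03% of all genes, and the other 8 did not pass. Over the 32 tumours 2 of the 10 rose, Il1r1 and Il13ra1, against 1.67% of all genes, and 0 fell, against 0.17%. Il1r1 is the signalling IL-1 receptor, but its 2 probe sets disagreed (r = -0.08).

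Along the Neutrophil score limma called 0 of the 30 genes, and at an unadjusted p under 0.05 it gave 1 that rose and 0 that fell. Over all genes 0.077% rose and 0% fell, and past the same thresholds 0.0885% and 0%. Of the 39 dimmer members 2 rose, and they are named although outside the set, after their values were seen. They were Il22ra2 (0.32 ± 0.07, adjusted p = 0.030), a decoy receptor for IL-22, and Il1f9 (0.16 ± 0.03, adjusted p = 0.037), an IL-36 cytokine.

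**Figure D4:**
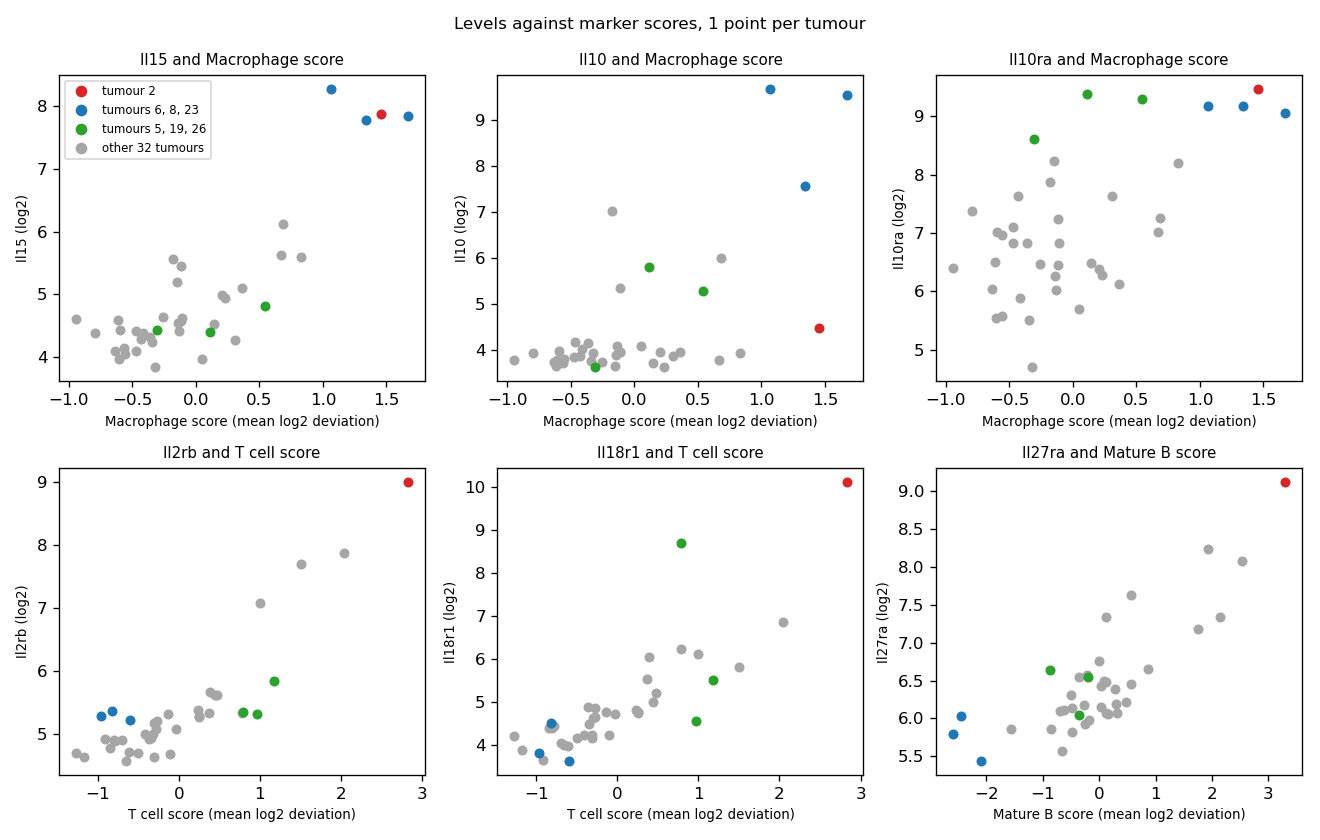
Log2 level of 6 genes against a marker score (mean log2 deviation over the list), 1 point per tumour, with the 7 tumours that stand apart in colour. Il15 and Il10 reach 8.28 and 9.69 in tumour 8, and Il2rb and Il18r1 reach 8.99 and 10.12 in tumour 2.

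The 5 scores together accounted for unequal shares of the variance of these genes. The adjusted share was 78.9% for Il2rb, 74.3% for Il27ra, 72.0% for Il15, 70.4% for Il1b and 70.2% for Il13ra1, against a median of 21.0% over all genes. It was 5.0% for Il2ra, 6.1% for Il15ra, 11.9% for Il17re, 13.4% for Il9r and 14.7% for Il12a. For Il12a the residual SD was 1.22, and 1.09 for Il10 and 1.03 for Il18. The highest levels of Il2ra, Il9r and Il12a were in tumours 13, 12 and 24, none of which had the highest value of any of the 5 scores.

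Chains of one receptor, and ligands with their receptors, were compared over 13 pairs in which both genes belong to the set. Where a gene split the tumours into separate clusters the relation was computed in the larger one. Of the 13 pairs, 9 had an adjusted p under 0.05 for r, and 7 of these also for rho. No other pairs of the set were tested, so the count has no background share. Over all 435 pairs of the set the median r was 0.27 and 24.1% lay above 0.5. Some pairs not among the 13 had a higher r than any of them, such as Il1b with Il2rb (0.82) and Il6ra with Il10rb (0.82). Whether partners in a receptor are closer than other pairs of the set was not tested. Il6ra and Il6st, the chains of the IL-6 receptor, moved together (r = 0.629, rho = 0.640, permutation p = 3e-05 and 1e-05, adjusted over the 13 pairs 2e-04 and 1.3e-04, n = 39). Their r was 0.686 without tumours 8 and 5, 0.666 over the 32 tumours and 0.403 given the 5 scores (adjusted p = 0.029). Il10ra and Il10rb gave r = 0.669 (rho = 0.510, p = 2e-05 and 0.001, adjusted 2e-04 and 0.0032), and 0.664 without tumours 2 and 19. That relation did not pass over the 32 tumours (r = 0.31, adjusted p = 0.12) or given the 5 scores (r = 0.03, adjusted p = 0.83).

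Il18r1 and Il18rap, which bind and signal for IL-18, gave r = 0.741 (rho = 0.472, permutation p = 7e-05 and 0.0027, adjusted 2.3e-04 and 0.007). Tumour 2 is far out on both axes, and without it r was 0.457 (adjusted p = 0.011). Il18 with Il18r1 gave r = 0.554 (rho = 0.455, p = 0.0025 and 0.0039, adjusted 0.0054 and 0.0084), and 0.378 without tumours 5 and 32. With tumour 2 also left out, that r was 0.242. By r, these 2 IL-18 relations passed in each of the 4 alternatives run, as Il6ra with Il6st did, though given the 5 scores the rho of Il18 with Il18r1 did not (adjusted p = 0.45).

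Il1b with its decoy receptor Il1r2 gave r = 0.652 (rho = 0.517, permutation p = 1.8e-04 and 8e-04, adjusted 4.7e-04 and 0.0032), and 0.284 without tumours 2 and 27. Given the 5 scores it did not pass (r = 0.179, adjusted p = 0.44). Il4ra with Il13ra1 gave r = 0.638 in a larger cluster of 32 tumours (rho = 0.486, p = 6e-05 and 0.0056, adjusted 2.3e-04 and 0.01), and 0.520 without tumours 18 and 27. That cluster is not the same as the 32 tumours used elsewhere. Over those r was 0.406 (adjusted p = 0.048), and 0.289 without tumours 18 and 27. The pair did not pass given the 5 scores (r = -0.05, adjusted p = 0.83) or with the mean of all probe sets (r = 0.242, adjusted p = 0.27), and the probe sets of Il4ra agreed poorly (lowest r = 0.31). The set-aside tumours were 2, 5, 8, 19, 22, 23 and 26. Il1r1 and Il1rap, chains of 1 receptor, ran in opposite directions (r = -0.467, rho = -0.508, p = 0.004 and 9.4e-04, adjusted 0.0074 and 0.0032), and -0.351 without tumours 2 and 1. Given the 5 scores r was 0.12 (adjusted p = 0.54). The probe sets of Il1r1 and of Il1rap disagreed (lowest r = -0.08 and 0.05). With the mean of all probe sets the r of the pair was -0.455 (adjusted p = 0.0095).

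For Il27ra with Il6st (r = 0.397, p = 0.012, adjusted 0.017) and Il10 with Il10ra (r = 0.454 in 35 tumours, p = 0.0073, adjusted 0.012) r passed and rho did not (rho = 0.285 and 0.190, permutation p = 0.08 and 0.27, adjusted 0.10 and 0.32). For Il10 the tumours set aside were 6, 8, 18 and 23. Leaving out the 2 tumours farthest from the median of the first gene gave 0.220 and 0.376. Il27ra with Il6st gave r = -0.12 given the 5 scores (adjusted p = 0.54) and 0.24 without tumour 2 (0.18). Among the 32 tumours, Il10 with Il10ra gave -0.07 in the 29 left without 1, 18 and 27 (adjusted p = 0.79), and 0.32 in all 32. By r, though not by rho, Il10 with Il10ra passed given the 5 scores (r = 0.406, adjusted p = 0.029). The same held with the mean of all probe sets (0.435, 0.016) and in the larger cluster without tumour 2 (0.448, 0.016). Given the 5 scores r was 0.183 without tumours 18 and 8. The last 4 pairs did not pass by r or rho in the larger cluster of tumours. Over all 39 tumours, where they were not tested, their r in the order given here were 0.459, 0.337, 0.255 and 0.615. Il15 with Il15ra gave r = 0.091 (rho = -0.044, permutation p = 0.6 and 0.8, adjusted 0.65 and 0.87) in the 35 tumours left without 2, 6, 8 and 23. Il15ra with Il2rb gave r = -0.066 (rho = -0.002, permutation p = 0.71 and 0.99, adjusted 0.71 and 0.99), and Il2ra with Il2rb r = 0.258 (rho = 0.324, permutation p = 0.13 and 0.057, adjusted 0.15 and 0.082), each in the 35 tumours left without 1, 2, 27 and 32. Il1b with Il1rn gave r = 0.321 in 33 tumours (rho = 0.361, permutation p = 0.068 and 0.041, adjusted 0.088 and 0.067), with 2, 8, 18, 23, 25 and 27 set aside. That pair did pass in 3 of its 4 alternatives. It passed in 29 of the 32 tumours, left without 18, 25 and 27 (r = 0.450, adjusted p = 0.03), and given the 5 scores (r = 0.571, adjusted p = 0.0013). It also passed in the larger cluster without tumour 2 (r = 0.462, adjusted p = 0.016). Within the larger clusters of the main comparison, without the 2 tumours farthest out on the first gene, the r of these 4 pairs were -0.090, 0.130, 0.255 and 0.209.

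**Figure D5:**
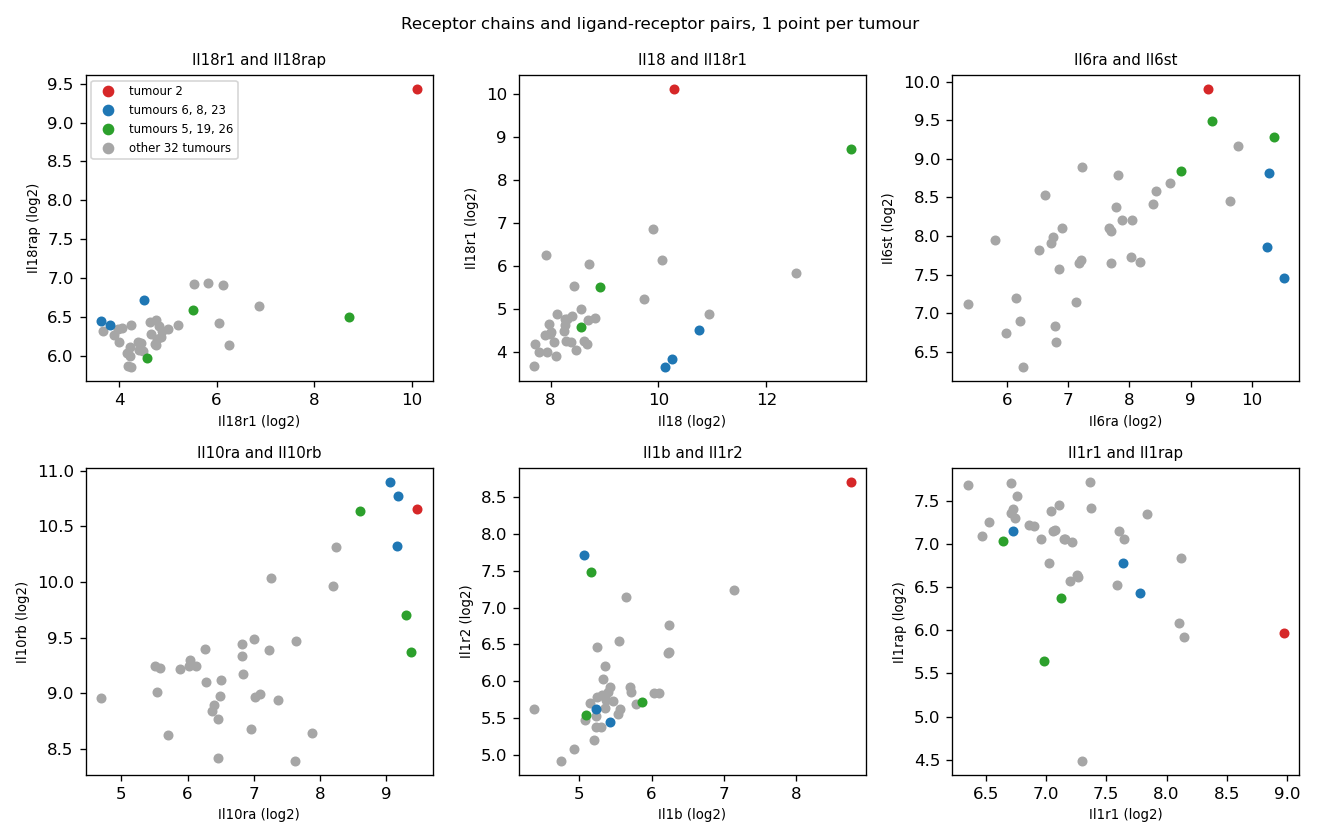
Levels (log2) of 6 gene pairs, 1 point per tumour, with the 7 tumours that stand apart in colour. Tumour 2 lies alone at 10.12 for Il18r1 and 9.43 for Il18rap, while Il6ra and Il6st rise together across the other tumours.

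The genes most like the 8 most variable members were described by Pearson's r over the same 39 tumours, with no test. Such an r gives most weight to the few tumours with extreme levels. These were 8, 6 and 23 for Il10, the same and tumour 2 for Il15, and 5 and 32 for Il18. These likenesses were not computed without those tumours. Il10 was most like Adamtsl4 (0.94), Gpr31b (0.93), Myom1 (0.92) and Qprt (0.92). Il15 was most like Slc11a1 (0.95), a metal transporter of phagocytes, Igsf6 (0.95), Ifitm2 (0.94) and Rras (0.94). Il13ra1 went with St3gal2, Fyb, Sema4c and Tyrobp, the last an adaptor of myeloid receptors (0.90 for each). Il6ra went with Nfam1 (0.87), Fxyd5 (0.87), Evi2a (0.86) and Fyb (0.85), and Il10ra with Pstpip1 (0.89), Grk3 (0.89), Fxyd5 (0.88) and Mob3a (0.87). Il18 was most like Fgfr1 (0.88), Srgap3 (0.87), Tsc22d1 (0.87) and Eepd1 (0.85). Il18r1 was most like Gabbr1 (0.87), Ctsw (0.86), a protease of cytotoxic cells, Traf1 (0.85) and Itgax (0.84), the CD11c integrin. Il12a had no close match: Mrgpre (0.70), Gpm6b (0.69), Btg1 (0.68) and Trp53inp1 (0.67) came nearest.

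Genes that carry the signal onward, and the adaptors and partners below, were read in the same limma fits over all tumours only. Whether their slopes and counts hold without the tumours that stand apart was not tested. Without those tumours the share of all genes that rose with the Macrophage score was 1.29%, against 17.3% with them. Tumour 2 had the highest score of the Jak, Stat and Socs list (1.62), followed by tumour 27 (0.68). Of 14 measured Jak, Stat and Socs genes, 8 rose and 0 fell with the T cell score, against 8.35% and 10.6% of all genes, and the median slope was 0.21, against -0.03 over all genes. Stat4, which transmits IL-12 signals, rose by 1.05 ± 0.12, Jak2 by 0.66 ± 0.10, and Socs1, a feedback inhibitor, by 0.45 ± 0.09. With the Macrophage score 5 rose and 2 fell, against 17.3% and 17.4% of all genes, with a median of 0.18, against -0.01 over all genes. Socs3, the inhibitor of gp130 signalling, rose by 0.89 ± 0.16 and Stat3, the main Stat of IL-6 and IL-10, by 0.42 ± 0.07, while Socs2 fell by 0.73 ± 0.21 and Stat5b by 0.19 ± 0.06. With the Mature B score 3 rose, Stat4, Socs1 and Jak1, and with the Fibroblast score 4 rose, Socs3, Stat3, Stat6 and Tyk2, against 5.37% and 12.9% of all genes. At an unadjusted p under 0.05 the numbers were 9 with the T cell score, 5 with the Mature B score and 4 with the Fibroblast score, and 0 fell with any of the 3.

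Of 6 measured adaptors of IL-1 and IL-17 receptors, 3 rose and 2 fell with the Macrophage score, against 17.3% and 17.4% of all genes (median slope 0.12, against -0.01). Irak3, an inhibitor of the pathway, rose by 0.99 ± 0.18, Irak2 by 0.67 ± 0.07 and Myd88 by 0.15 ± 0.04, while Traf6 fell by 0.24 ± 0.05 and Traf3ip2 by 0.18 ± 0.06. With the T cell score 0 of the 6 passed, also at an unadjusted p under 0.05. With the Fibroblast score 3 rose and 1 fell, against 12.9% and 8.96% of all genes, and with the Mature B score Irak3 alone fell, by 0.76 ± 0.21, against 7.59%. Of 11 partner cytokines and chains 5 rose and 0 fell with the T cell score, and 5 rose and 0 fell with the Macrophage score (unadjusted 5 and 7 rose, and 0 fell). The shares of all genes that rose were 8.35% and 17.3%, and the median slopes of the list were 0.39 and 0.35. With the Mature B score 2 rose, against 5.37%, and with the Fibroblast score 3, against 12.9%, and with the Neutrophil score limma called 0 genes of the 3 lists, also at an unadjusted p under 0.05. Il18bp, the soluble inhibitor of IL-18, rose by 0.55 ± 0.10 with the T cell score and by 0.62 ± 0.09 with the Mature B score. Csf2rb, the chain that pairs with Il3ra and has a close copy, Csf2rb2, rose by 1.04 ± 0.18 with the T cell score and by 0.86 ± 0.20 with the Macrophage score. Ebi3, the subunit of IL-27 and, with Il12a, of IL-35, rose by 1.64 ± 0.20 with the Macrophage score. Il12a did not pass with that score (-0.13 ± 0.21).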

How the data were processed

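Expression was measured in 39 lymphomas, 1 array each. Per the submitters' processing notes the authors used affy and RMA, which removes background, quantile normalizes and condenses probes to 1 value per probe set. The deposited table is on the log2 scale, as its range shows; versions and filters: not given in the sources used here. Quantile normalization hides changes in total RNA and compresses dim genes. Array medians ran from 5.61 to 5.78, and 0 columns were unused. Precision is limited by the number of arrays.

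Of 45101 probe sets, 35890 were listed in the platform annotation and 34958 named 1 gene, 932 did not and 9211 were unlisted. The highest mean represented each of 18194 genes, and 34754 probe sets matched GRCm38.p6 by Entrez identifier. Interleukin genes were matched by the symbol rule, which also takes Il6st; Il18bp and Il4i1 carry no chain or receptor code and stood in a partner list. Of 79 RefSeq symbols of that form, 10 were not analysed here. The 69 measured members hold neither Il2rg nor Il1rl1, so planned pairs with these genes were not computed.

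Genes were fitted with limma 3.58.1 (R 4.3.3; trend) on 5 scores at an adjusted p of 0.05, 2-sided, a score's own genes left out. Pairs used 2-sided permutation tests (100000 draws, smallest p 1e-05) and mclust 6.1.1 clusters (BIC gain over 10, at least 3 tumours). The tumours set apart had a Pan B score under -1 or a Myc level under 10. All members of the set were named. The members, lists, pairs and tests were chosen with earlier results of these data known. The fits were tested on simulated data.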

Additional observations from a re-analysis of the deposited data

How the results depend on the processing

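The number of tumours and the composition of the tissue limit these results, and no paired analysis was possible because all tumours are in 1 group. Of 64 alternative counts, 45 lay within 1.5 times of the reported count, where 0 against 0 was taken as within. The main Neutrophil counts and most main falling counts were 0, so the 45 say little about how stable the rising counts are. The 19 that moved further are given below, and most of them are rising counts. Of 872 alternative values of single slopes and relations, 740 stayed on their side of the threshold, 92 no longer passed, 31 newly passed and 9 reversed. A change of sign was counted as reversed only where the main or the alternative value passed. The 740 therefore include values that changed sign. With the T cell score the rising count was 8 by ranks, 8 among genes above the median level and 7 without tumour 2 (chosen after seeing the data). With the Macrophage score it was 2 over the 32 tumours, 9 with all 5 scores in 1 fit and 7 above the median level, and 1 gene fell with all 5 scores and 1 with the mean of all probe sets. With the Mature B score it was 5 rising and 7 falling with all 5 scores, 3 by ranks, 2 above the median level and 2 without tumour 2, and 1 fell over the 32 tumours and 1 without tumour 2. With the Fibroblast score it was 2 over the 32 tumours, 2 with all 5 scores and 5 above the median level, where fewer genes were tested. Given the 5 scores, 5 pairs passed. Reversed values were, over the 32 tumours, Il3ra along the Macrophage score (-0.0084) and Il10 (0.47) and Il15 (0.41) along the Mature B score. In 29 of the 32, Il10 with Il10ra reversed too (-0.068, against 0.32 in all 32). With all 5 scores they were Il10ra along the Mature B score (-0.60), Il3ra along the Fibroblast score (-0.034), Il4ra with Il13ra1 (-0.046), Il27ra with Il6st (-0.12) and Il1r1 with Il1rap (0.12). The cause of these changes was not tested.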

Other observations

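Among the 39 dimmer members, which are named here after their values were seen, several followed the same scores in the limma fits over 39 tumours. Il12b and Il12rb1, a subunit of IL-12 and a chain of its receptor, rose with the T cell score by 0.21 ± 0.05 and 0.31 ± 0.07 (adjusted p = 0.0056 and 0.0009), and both were highest in tumour 2 (6.03 and 7.16, with medians of 4.24 and 5.24). Il1a, the other IL-1 cytokine, rose by 0.35 ± 0.06 with the T cell score and was also highest in tumour 2 (6.37, with a median of 4.80). Il1rl2, the IL-36 receptor, rose by 0.35 ± 0.06 with the Macrophage score and was highest in tumour 6 (6.42, with a median of 4.18). Il6 had its highest level, 5.73, in tumour 12, and Il31ra, with 7.90 in tumour 5, had the highest single level of the dimmer members. Over the 435 pairs that the 30 genes can form, the median r was 0.27, 24.1% lay above 0.5 and 1.38% below -0.5, all over the same 39 arrays.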
